A study of Mus musculus with 8 samples.

Results

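The 9 genes Acvr1, Acvr1b, Bmpr1a, Bmpr1b, Tgfbr1, Acvr2a, Acvr2b, Bmpr2 and Tgfbr2 encode receptors for bone morphogenetic proteins (BMPs), activins and TGF-beta. They were taken from a list of 21887 protein-coding genes, and every chromatin region bound by the PRDM16 antibody whose summit, the point of highest read pileup, lay in the body of one of them was counted. A summit between genes was counted when one of the 9 was the nearest protein-coding gene and its nearer end lay within 100 kb. By this rule 48 of the 48145 regions in 4 peak lists belonged to the receptor genes. PRDM16 is a zinc-finger protein made in radial glia, which generate the neurons of the cortex. ChIP-seq with an antibody to it was run on lysed whole cortex from E15.5 mouse embryos, giving 2 ChIP libraries per genotype. Embryos called wild type (WT) were Prdm16 flox/flox and carried no Cre, and the conditional knockouts (cKO) were Emx1Ires-Cre; Prdm16flox/flox. Both genotypes therefore had floxed alleles. Emx1-driven Cre acts in cells of dorsal telencephalic origin, so cells of other lineages in the lysate can keep Prdm16. The peak lists do not show how much PRDM16 was left. In a lysate of whole tissue, fewer bound cells and weaker binding per cell cannot be told apart.

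Receptors of this family are serine/threonine kinases that work in complexes. A dimeric ligand brings type II receptors, whose kinase is always active, together with type I receptors, and the type II kinase switches the type I kinase on. The type I receptor then phosphorylates Smad proteins, which enter the nucleus: the Smad1, Smad5 and Smad9 branch after BMP, and the Smad2 and Smad3 branch after activin and TGF-beta. In the embryonic forebrain, BMPs from the dorsal midline help to pattern the cortex and the cortical hem.

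Regions at the receptor genes were found mainly in WT cortex. The WT ones lay mostly in gene bodies. Few were near a tabulated start, which was also so over the whole WT lists. WT replicates 1 and 2 held 18 and 24 receptor regions, and cKO replicates 1 and 2 held 4 and 2. The WT mean was 21 ± 4.24 and the cKO mean 3 ± 1.41 (SD, n = 2 per genotype), a difference of 18 regions, and both WT libraries lay above both cKO libraries. An exact two-sided permutation test over the 4 libraries gave p = 0.333, the smallest value that this design allows. All regions of the lists went the same way, with 13852 and 26652 in WT and 4553 and 3088 in cKO. The ratio of WT to cKO means was 7 at the receptor genes and 5.30 over all regions. When each list was cut to its 3088 most significant regions, the receptor genes kept 4 and 4 regions in WT and 3 and 2 in cKO, a difference of 1.5 (exact permutation p = 0.333). The size of the difference therefore depended on how many regions each list held. Peak names carry one library identifier in both WT lists and another in both cKO lists, no label says what it marks, and its part cannot be told apart from genotype. No label says whether replicates came from separate embryos, so the p-values refer to these libraries alone. They follow from both WT counts lying above both cKO counts and do not measure the spread between libraries.

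**Figure D1:**
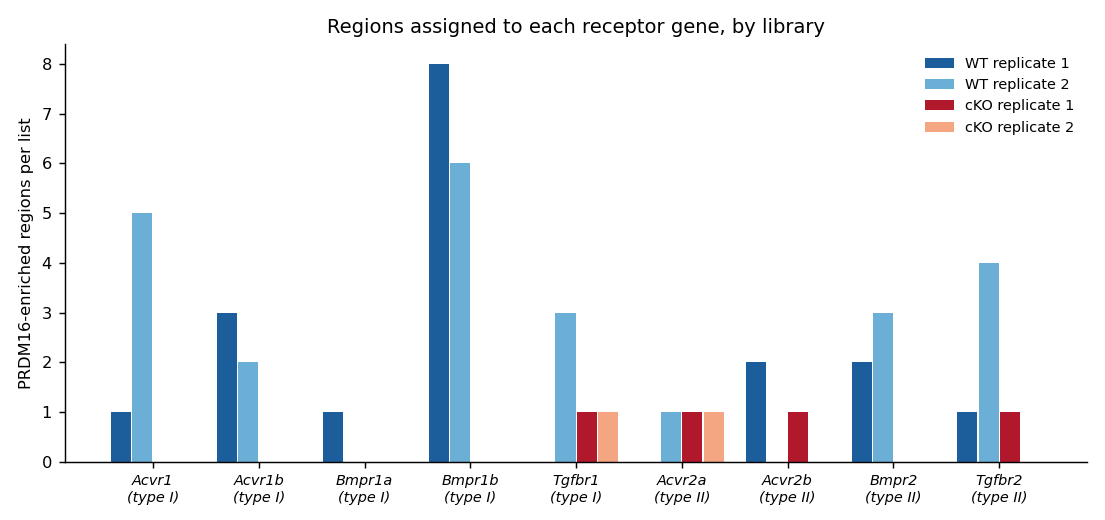
Number of PRDM16-enriched regions (vertical axis) assigned to each of the 9 receptor genes in the 4 libraries; dark and light blue bars are the WT replicates, red and orange bars the cKO replicates. Bmpr1b has 8 and 6 regions in WT and no bar in cKO, while Tgfbr1 and Acvr2a are the genes with a bar in both cKO lists.

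Acvr1b and Bmpr1b stood at the top of the family. A region in Acvr1b had the highest fold enrichment of any receptor region, and Bmpr1b had the most regions. Each of the 9 genes had a region in at least 1 WT list, against 37.7% of all protein-coding genes. WT replicate 1 reached 7 genes (23.6% of all genes), and WT replicate 2 also reached 7 (34.5%). In both WT lists 5 genes had regions, Acvr1, Acvr1b, Bmpr1b, Bmpr2 and Tgfbr2, against 20.5% of all genes. Bmpr1a and Acvr2b had regions in WT replicate 1 alone, and Tgfbr1 and Acvr2a in WT replicate 2 alone. The members are long genes, with bodies longer than those of 72.3% to 97.9% of all genes, and the percentages for all genes take no account of length. Per length of genome assigned to them, the receptor genes held 8.65 regions of both WT lists per Mb, against 4.23 over all protein-coding genes. Leaving out Bmpr1b, which has the longest body, the other 8 genes held 5.89 per Mb.

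A region of both WT lists, meaning a union of overlapping peaks from the 2 replicates, occurred 12 times at the receptor genes. These 12 held 15 of the 18 receptor peaks of WT replicate 1 (83.3%, against 78.2% over that whole list) and 12 of the 24 of WT replicate 2 (50%, against 38.7%). None of the 12 overlapped a region of either cKO list. Over all regions of both WT lists, 91.5% overlapped none, so the share at the receptor genes was close to that of the lists as a whole. The nearest cKO region lay 30079 bp away at Tgfbr2, and at Bmpr1b 711925 bp or more away. Without WT replicate 1, the longer list alone gave 24 regions in place of the 12.

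The listed fold enrichment is the read pileup at the summit over the local background, each raised by 1. Solving fold and p-value together gave the whole number of reads at each summit. By the same calculation, the smallest fold that could be called at the median background was 3.18 for the first cKO library and 3.30 for the second. All 12 regions exceeded both limits in both WT replicates, against 98.8% of all regions of both WT lists. The limit of WT replicate 1 itself was 3.53, above both cKO limits. This outcome was therefore largely fixed by the call in that list, and no conclusion is drawn from it. With the lower WT fold divided by 2, 8 of the 12 still did, against 44.5%. For the other 4, the divided fold lay below both limits, so a cKO signal at that level could have been missed. The limits hold at the median background, and 3.91% and 3.59% of peaks in cKO replicates 1 and 2 were called under them. Summits of the 12 regions differed between the WT replicates by 10 to 367 bp, with a median of 56.5 bp against 56 bp over all regions of both lists.

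**Figure D2:**
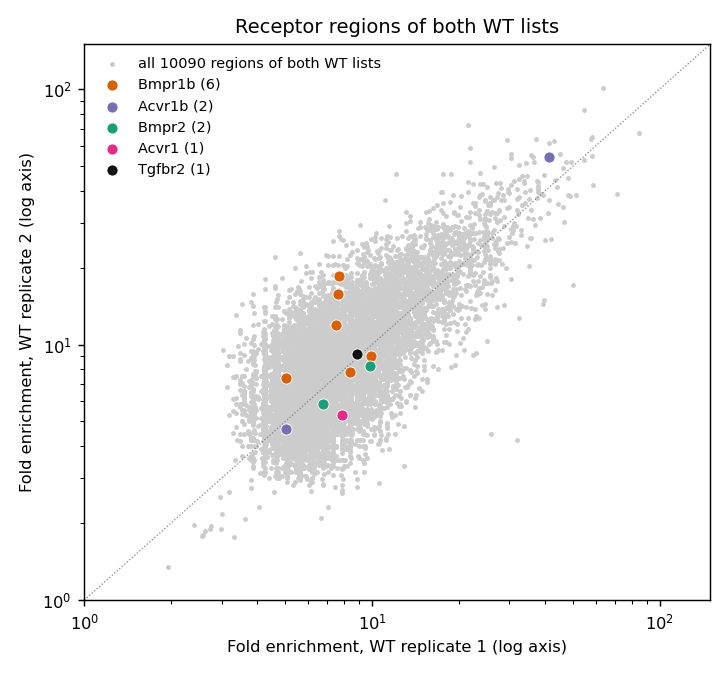
Fold enrichment in WT replicate 1 (horizontal, log axis) against WT replicate 2 (vertical, log axis) for all 10090 regions of both WT lists (grey) and the 12 at receptor genes (coloured by gene); the dotted line marks equal values. The Acvr1b region at 41.3 and 54.2 stands at the upper right, and the Bmpr1b regions reach 18.5 in replicate 2 while staying under 10 in replicate 1.

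Start-site sequences are shown for 3 receptor genes as examples of start windows with and without a region. Acvr2b is the single receptor gene where a WT and a cKO region overlapped, and Acvr2a has a cKO region on its start window. Bmpr1b has the most WT regions but none on its tabulated start windows, which do not cover its annotated 5′ end. The windows, of 250 bases before and 50 after an annotated start, come from RefSeq (GRCm38.p6, the mm10 assembly), are printed 5′ to 3′ on the gene's strand, and were matched for all 9 genes. For Acvr2b, chr9:119401928-119402227, plus strand, capitals mark the 124 bases that lie under a region in both WT replicate 1 and cKO replicate 1. For Acvr2a, chr2:48813859-48814158, plus strand, capitals mark the 60 bases under the region of cKO replicate 2. For Bmpr1b, chr3:141931539-141931838, minus strand, the window nearest to a cluster of WT regions, capitals mark CG pairs.
Acvr2b: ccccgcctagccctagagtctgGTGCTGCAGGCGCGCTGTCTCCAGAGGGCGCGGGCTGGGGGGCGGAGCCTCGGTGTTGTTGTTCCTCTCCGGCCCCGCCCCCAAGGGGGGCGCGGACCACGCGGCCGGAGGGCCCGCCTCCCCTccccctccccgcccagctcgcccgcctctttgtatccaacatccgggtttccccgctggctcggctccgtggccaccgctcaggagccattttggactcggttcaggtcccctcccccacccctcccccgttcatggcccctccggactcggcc
Acvr2a: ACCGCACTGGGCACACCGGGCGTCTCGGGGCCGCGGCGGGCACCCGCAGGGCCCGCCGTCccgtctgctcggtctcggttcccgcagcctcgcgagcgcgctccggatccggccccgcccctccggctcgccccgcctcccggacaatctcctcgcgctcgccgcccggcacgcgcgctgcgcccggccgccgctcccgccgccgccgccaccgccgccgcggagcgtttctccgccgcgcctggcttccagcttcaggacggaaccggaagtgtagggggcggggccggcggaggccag
Bmpr1b: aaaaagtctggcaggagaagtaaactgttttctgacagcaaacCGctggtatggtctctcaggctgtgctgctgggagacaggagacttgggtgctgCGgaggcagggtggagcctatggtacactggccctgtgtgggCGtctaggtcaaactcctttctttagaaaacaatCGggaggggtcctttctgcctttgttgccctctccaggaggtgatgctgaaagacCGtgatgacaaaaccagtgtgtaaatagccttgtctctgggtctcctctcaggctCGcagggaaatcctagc

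Content of CG pairs did not separate the windows under a region from the others. The Acvr2a window held 54 CG pairs and 80.3% G or C, and the Acvr2b window 27 and 73.3%. Windows with no base under a region in any list held more CG pairs than the Acvr2b window at Acvr1 (51 CG pairs, 83.7% G or C), Acvr1b (51 and 79.7%), Bmpr1a (48 and 79.3%) and Tgfbr1 (34 and 74.7% in the window at its 5′ end). The 3 Bmpr1b windows, also under no region, held 5, 6 and 6 CG pairs and 48.3% to 55.7% G or C. The medians over 21263 windows of protein-coding genes were 13 CG pairs and 56.3%. Short motifs were counted on both strands of the 12 receptor windows, of which 2 at Bmpr1b overlap each other. The Smad element CAGACA was in 2 (Bmpr1b and Tgfbr1), against 18.9% of all windows, and the GC-rich BMP element GGCGCC was in 4 (Acvr1b, Bmpr1a, Bmpr2 and Tgfbr1), against 15.3%. The E-box CAGCTG was in 3 (2 of Bmpr1b and 1 of Tgfbr2; 15.6% of all) and the NFI motif TTGGCA in 1 (Tgfbr1; 13.1%). The Smad palindrome GTCTAGAC, the SOX motif ACAATGG and the GATA-like core AAGATAA were in none of the 12, against 0.226%, 2.92% and 3.01% of all windows.

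Among the type I receptors, Acvr1b (chr15:101174072-101213684, plus strand) encodes the activin receptor ALK4. Its main region, chr15:101191610-101192528, lay in the gene body, with the summit 17830 bp inside the 5′ end. WT replicate 1 had 78 reads at that summit over a background of 0.912, a fold of 41.3, and WT replicate 2 had 184 reads over 2.41, a fold of 54.2. The mean was 47.8 ± 9.11 (SD, n = 2), which ranked 17th of the 10090 regions of both WT lists, in the top 0.168%. The summits of the replicates were 10 bp apart, and neither cKO list held a region at Acvr1b. In WT replicate 1 the same site was split, with a second peak of 5.63-fold inside the region. A weaker region of both WT lists lay 9859 bp before the gene, at 5.01 and 4.66 in the WT replicates.

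Bmpr1b (chr3:141837135-142169585, minus strand) encodes the BMP receptor ALK6 and has the longest body of the 9, 332451 bp. It held 8 and 6 regions in WT replicates 1 and 2 and 0 in each cKO list. The peaks joined into 6 regions of both WT lists, and 212 protein-coding genes (0.969%), Bmpr1b among them, had at least 6. A cluster of 4 of them spanned 20888 bp, from 141932507 to 141953394, inside the gene. The nearest of its 3 tabulated starts, at 141931588, lies downstream of all 4 in the direction of transcription and is the one whose window is printed above. The strongest, chr3:141936509-141937202, had folds of 7.70 and 18.5 in the WT replicates, from 19 and 69 reads at the summit, a mean of 13.1 ± 7.61. Its neighbours had 7.62 and 15.7, 7.48 and 11.9, and 5.04 and 7.39. In each of these 4 the fold was higher in WT replicate 2. Outside the cluster, chr3:142063392-142064298 had 9.89 and 9.01. The region chr3:142169246-142169502 had 8.36 and 7.82, with its summit 246 bp inside the annotated 5′ end of the gene, where the table used has no start window.

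The genes most like Bmpr1b in region counts over the 4 libraries were Tmem132b (8, 7, 0 and 0), Reep3 (7, 6, 0 and 0) and Ddr1 (8, 6, 1 and 0), each with a summed difference of 1 region. In all, 4 genes lay at that distance, and none was closer.

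Acvr1 (chr2:58446438-58566828, minus strand) encodes the BMP and activin receptor ALK2. WT replicate 1 held 1 region in it and WT replicate 2 held 5, all in the body between 72537 and 91227 bp from the 5′ end, and the cKO lists held 0. One site, chr2:58493575-58493973, was in both WT lists at 7.88 and 5.30, from 13 and 24 reads at the summit. The replicate with more reads thus had the lower fold, since its background was 3.72 reads against 0.777. Bmpr1a (chr14:34411061-34503336, minus strand), the gene of the widely used BMP receptor ALK3, had the fewest regions of the 9 over the 4 lists together, 1 in all. Its single region, chr14:34483916-34484082, was called in WT replicate 1 alone, with 11 reads at the summit and a fold of 6.75. It is 1 of the 3 receptor peaks of that list that WT replicate 2 did not hold, whose folds ran from 5.63 to 6.75.

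Tgfbr1 (chr4:47353222-47414926, plus strand) encodes the TGF-beta receptor ALK5 and had no region in WT replicate 1. WT replicate 2 held 3, the strongest 675 bp inside the 5′ end, chr4:47353757-47354020, with 20 reads at the summit and a fold of 7.55. A region 11751 bp before the gene had 4.34. Beyond the 3′ end of Tgfbr1 lay the single receptor site found in both cKO lists, chr4:47438062-47438306. There cKO replicate 1 had 26 reads and a fold of 4.94 and cKO replicate 2 had 17 reads and a fold of 5.12, with summits 7 bp apart, 23248 bp outside the gene. The third region of WT replicate 2, at 3.39-fold, ended 174 bp before the union of the cKO peaks, so it did not overlap them although its summit was 348 and 355 bp from theirs. A region of both cKO lists was found for 1 of the 9 receptor genes, against 6.83% of all genes.

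**Figure D3:**
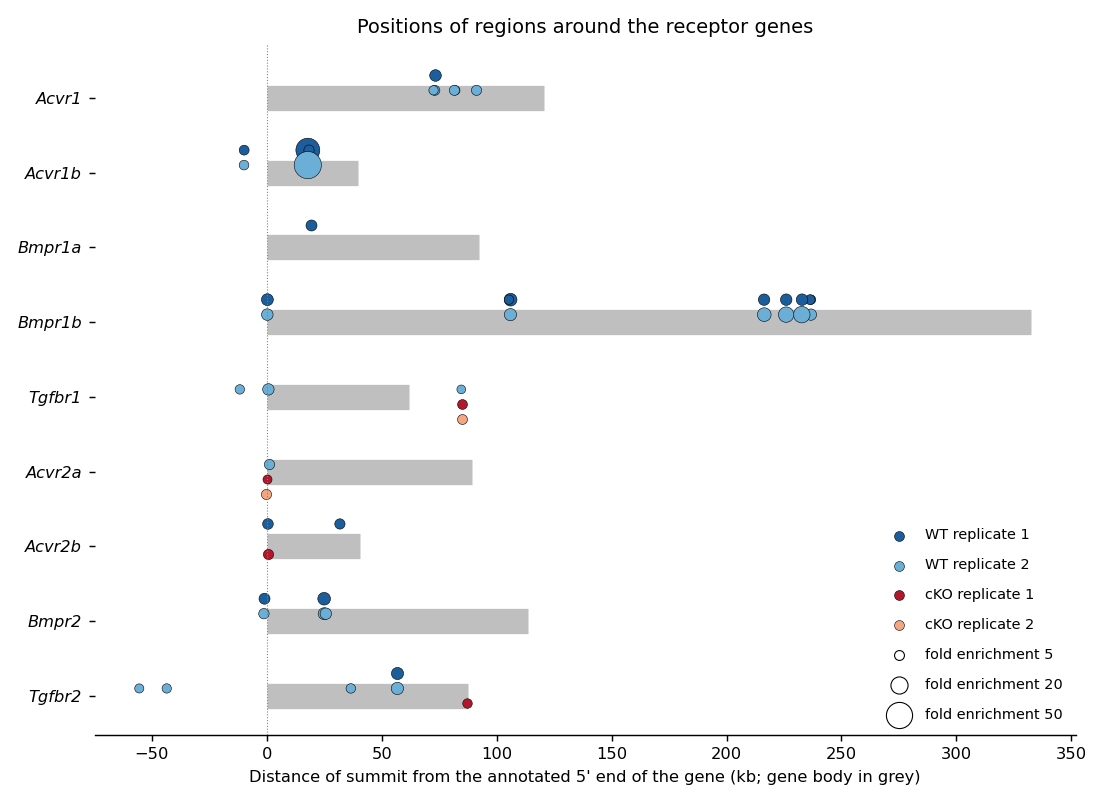
Summit positions in kb from the annotated 5′ end of each receptor gene (horizontal axis; grey bars are gene bodies, read in the direction of transcription), with 1 row of points per library and point area rising with fold enrichment. WT points cluster in the 3′ part of the Bmpr1b body, the largest points are those of Acvr1b, and cKO points sit near the 5′ ends of Acvr2a and Acvr2b, near the 3′ end of Tgfbr2 and beyond Tgfbr1.

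Among the type II receptors, Bmpr2 and Tgfbr2 had regions of both WT lists, and Acvr2a and Acvr2b had none. Bmpr2 (chr1:59764279-59878081, plus strand), the dedicated BMP type II receptor gene, had 2 and 3 regions in WT and 0 in each cKO list. Its region in the body, chr1:59788953-59789511, had 20 and 22 reads at the summit and folds of 9.81 and 8.27, a mean of 9.04 ± 1.09. Before the start, chr1:59762909-59763367 had 6.75 and 5.87, with summits 1011 and 1269 bp upstream of the 5′ end. Tgfbr2 (chr9:116087695-116175363, minus strand) encodes the TGF-beta type II receptor. Its region of both WT lists, chr9:116118318-116118727, had folds of 8.87 and 9.22 from 20 and 32 reads, a mean of 9.04 ± 0.249, and its summits were 17 bp apart. WT replicate 2 alone held 3 more, with 4.49 in the body and 4.23 and 3.91 at 43544 and 55489 bp before the gene. The 1 region of cKO replicate 1, chr9:116088031-116088239, was at the other end of the gene, with 20 reads and 4.45-fold enrichment.

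The activin type II receptor genes Acvr2a and Acvr2b had regions close to their starts in both genotypes. At Acvr2a (chr2:48814109-48903264, plus strand) 3 libraries each had 1 region near the start, and no pair of them overlapped. Their summits lay 751 bp inside the gene in WT replicate 2 (18 reads, 5.71-fold), 138 bp inside in cKO replicate 1 (16 reads, 3.76-fold) and 271 bp upstream in cKO replicate 2 (20 reads, 5.52-fold). The cKO regions were 258 bp apart, and the WT region began 324 bp past that of cKO replicate 1. At Acvr2b (chr9:119401583-119442148, plus strand) WT replicate 1 had a peak of 10 reads and 6.19-fold enrichment at chr9:119401950-119402115. The region of cKO replicate 1 there, with 21 reads and 5.57-fold enrichment, overlapped it by 124 bp, the bases in capitals above. A second region of WT replicate 1, chr9:119433243-119433446, lay 31796 bp inside the gene at 5.63-fold enrichment, away from the start. WT replicate 2 and cKO replicate 2 held no region at Acvr2b.

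Receptor regions of the WT lists lay mostly away from start sites, as did the regions of the whole WT lists. In the WT lists 34 of 42 were in gene bodies, and the other 8 were 1011 to 55489 bp outside. Of the 12 receptor regions of both WT lists 10 were in bodies (83.3%), against 48.9% over all regions of both WT lists. The members are long genes, and these shares take no account of length. Exons and introns could not be separated with the table used. Only 3 of the 42 had a summit within 1 kb of a tabulated start of their gene, at Acvr2b, Acvr2a and Tgfbr1. In WT replicates 1 and 2, the Bmpr1b summits 246 and 207 bp inside its annotated 5′ end were not counted. No start is tabulated there. Over the whole WT lists 8.86% and 9.17% of regions were within 1 kb of a protein-coding start. In the cKO 3 of 6 were, at Acvr2a in both replicates and at Acvr2b, and over the whole cKO lists 34.3% and 35.4%.

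In the cKO, 4 receptor genes had a region in replicate 1 (16.4% of all genes) and 2 in replicate 2 (11.8%). Tgfbr1 and Acvr2a had one in both, against 7.7% of all genes. With cKO replicate 1 as the only cKO list, this count was 4. The 6 cKO folds ran from 3.76 to 5.57. Counted the other way, Acvr1, Acvr1b, Bmpr1b and Bmpr2 had more regions in both WT lists than in either cKO list, 4 of 9 against 15.7% of all genes. Tgfbr2 did not, with 1 region in WT replicate 1 and 1 in cKO replicate 1.

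The rest of the pathway was read with the same rule over 51 genes. A region of both WT lists and neither cKO list was found at 5 of the 9 receptor genes (55.6%) and 19 of the 51 others (37.3%), against 16.6% of all protein-coding genes. The list was chosen with earlier results known and was given no test. The share of all genes takes no account of gene length or of the length of genome assigned to a gene. With WT replicate 2 as the only WT list, the 19 became 33. The folds named next are those of a gene's strongest region of both WT lists, whether or not a cKO list also held it. Among ligands 4 of 15 had a region of both WT lists and neither cKO list. Bmp7 had the highest mean fold of the 51 genes, 40.1 and 25.7 in the WT replicates at 70854 bp outside the gene. This region was also in a cKO list, and Bmp7 held 1 and 2 regions in WT and 3 and 1 in cKO. The activin subunit gene Inhbb had 12.9 ± 6.91 and the TGF-beta ligand gene Tgfb2 had 10.3 ± 1.62 (SD, n = 2). Inhbb held 2 and 5 regions in WT and 4 and 3 in cKO. Of its 2 regions of both WT lists, 1 was in neither cKO list. At Tgfb2 this held for 2 of 3.

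Other receptors and co-receptors had 3 of 8. Tgfbr3, the betaglycan co-receptor gene, had 3 regions of both WT lists, the strongest at 11.6 ± 3.58 in its body. Rgma, a BMP co-receptor gene, reached 5.75 ± 1.19 and Acvr1c, a type I receptor gene of Nodal signalling, 5.24 ± 2.50. Of the 2 regions of both WT lists at Rgma, 1 was in neither cKO list. Acvrl1 and Amhr2, receptor genes of endothelium and of the gonads, had no region in any of the 4 lists. Lacking one is common, since 37.7% of all protein-coding genes had a region in at least 1 WT list. Eng, another gene of this role, had 1 region in WT replicate 2. Secreted antagonists had 4 of 9, led by Bmper (17.5 ± 5.48), the noggin gene Nog (11.0 ± 2.53) and the follistatin gene Fst (8.73 ± 0.511). Of the 6 regions of both WT lists at Bmper, 5 were in neither cKO list. Of the Smads and their regulators 4 of 12 had one. Smad1, a BMP-branch Smad gene, reached 8.95 ± 2.68 and the corepressor gene Ski 7.97 ± 3.88. The region of Smad5, at 8.04 ± 0.577, was also in a cKO list. Among target genes 4 of 7 did, led by Id4 (16.2 ± 3.80), Id2 (12.9 ± 4.03) and Msx2 (9.41 ± 5.29), with the regions 89364, 28572 and 63089 bp outside the gene.

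**Figure D4:**
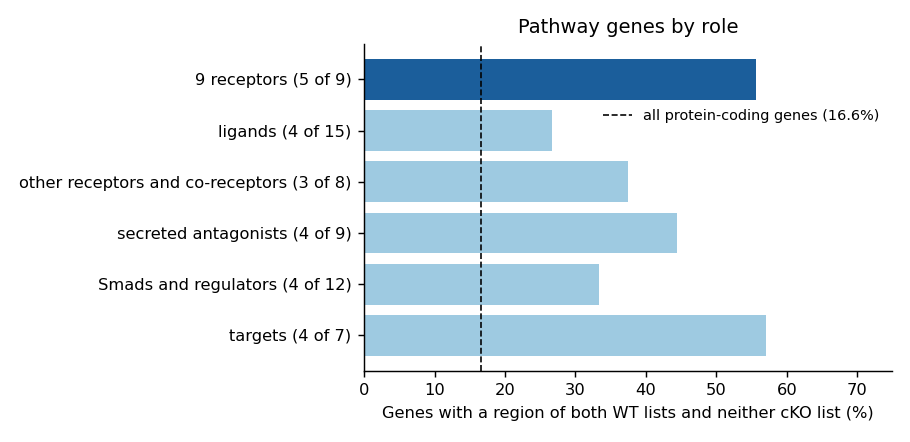
Percentage of genes in each role (bars) with a region of both WT lists and neither cKO list, with the number of genes in brackets and the value over all protein-coding genes as a dashed line. The receptor bar is at 55.6% and the target bar at 57.1%, with the ligand bar at 26.7% and the line at 16.6%. The line takes no account of gene length or of the length of genome assigned to a gene.

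Genes of the tissue and of other cell types were looked up in the WT lists, where binding is no measure of expression. All 8 dorsal cortex genes checked (such as Pax6, Emx1 and Sox2) had a region of both WT lists, against 18.3% of all genes. Of the other genes 1 of 4 of the ventral telencephalon, 1 of 3 of endothelium, 1 of 3 of liver, 0 of 2 of microglia and 0 of 2 of muscle had one. The lists were chosen with earlier results known, and the share of all genes takes no account of gene length. Lists of 2 to 4 genes are too short to be told apart from that share, so no difference between tissues is read from them.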

How the data were processed

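ChIP libraries of both genotypes were analysed, 2 per genotype, and the 4 input libraries were left out because they have no peak list among the files used. Bowtie2 2.2.8, MACS2 2.1.1, cutadapt, FastQC and the mm10 build are listed in the submitters' processing notes. The sources used here give neither their settings nor the input used as control. The authors deposited 1 peak list per library, so replicates were not pooled. In the deposited lists the enrichment of a peak is a fold, a ratio to local background, and its significance is −log10 of the p-value and of the q-value. Folds describe peaks within their own list, and no change between genotypes was read from them.

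Only chromosomes 1 to 19, X and Y were used. Summits were assigned to genes of a RefSeq table (GRCm38.p6), and regions sharing at least 1 bp counted as the same. Start windows, with strand, came from RefSeq and do not cover chromosome 18. Pileups solved from fold and p-value were whole numbers, within 0.0001 of the listed −log10 p, for 99.89% to 99.96% of the regions tried per library. The smallest background was 0.777 and 1.78 reads in WT and 2.95 and 2.52 in cKO. The lists hold no read totals, so the depth of a library is unknown. An exact permutation test compared the numbers of regions per library, and the assignment, overlap and pileup steps were tested on simulated data. Work was done in Python 3.11.15 with pandas 2.3.3, scipy 1.17.1 and networkx 3.6.1. All 9 receptors are described; of the pathway list, up to 3 genes per role with the highest mean fold are named, and for Bmpr1b the 3 genes with the nearest counts. Acvrl1, Amhr2 and Eng were named after their values were seen. The members, lists and rules were chosen with earlier results of these data known.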

Additional observations from a re-analysis of the deposited data

How the results depend on the processing

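WT libraries held more receptor regions than cKO libraries at an assignment distance of 10 kb, in gene bodies alone, in lists of equal length, and with each library left out. With lists of equal length the difference was only 1.5, against 18 in the main setting. A stricter q-value (0.01) removed no receptor region, since the lowest −log10 q among them was 2.62. An overlap of 50% of both regions changes which regions count as shared, not how many a library holds. Both alternatives left the count of every library unchanged, so they do not test the difference. The difference ranged from 15 to 21 with a library left out. It was 18 with the replicate block, whose exact permutation p of 0.5 is the smallest that 2 pairs allow, and same-numbered libraries did not deviate together (r = -0.043 across 9610 genes, which are not independent replicates). Requiring an overlap of 50% gave 8 regions of both WT lists in place of 12, and 8 in neither cKO list. With lists of equal length, fewer regions were compared: 2 receptor genes had regions in both WT lists, 1 had regions in both cKO lists, and 1 region, that of Acvr1b, was in both WT lists and 1 in both WT lists and neither cKO list. With a library left out, receptor genes with regions in both WT lists numbered 5 to 7 and in both cKO lists 2 to 4. Regions of both WT lists numbered 12 to 24, those in neither cKO list 12 to 24, and other pathway genes 20 to 33. Without a library of the genotype counted, its other list stood alone, so the upper values are not counts of shared regions. Receptor genes with regions in both cKO lists fell to 1 at 10 kb and 0 in gene bodies. Regions of both cKO lists that no WT list held, a count added after the data were seen, went from 1 to 0 at 10 kb and to 0 in gene bodies. This count ranged from 1 to 3 with a library left out. The 2 without cKO replicate 1 and the 3 without cKO replicate 2 come from the remaining cKO list alone. Counting summits within 500 bp as shared, also added afterwards, left 1, but at Acvr2a in place of Tgfbr1, whose cKO site then matched a WT region. The background of each library limits what could be called. The smallest callable fold at the median background ran from 3.01 to 3.53 across the 4 libraries.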
